A study of Mus musculus with 4 samples.

Results

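The miRNA genes described here are those whose mouse symbol is Mir followed by a number of 1000 or more, such as Mir5099. They were found by joining the gene IDs of the deposited table to RefSeq symbols, and genes inside the large miRNA cluster of the Dlk1-Dio3 region on chromosome 12 were left out. This gave 182 genes of 643 miRNA genes and of 2976 rows in all. A further 8 miRNA genes with such numbers lay in that cluster, between 109544541 and 109747960 on chromosome 12 of GRCm38. The genes set beside the 182 were the 404 miRNA genes outside the cluster that have a lower number or belong to let-7, called lower-numbered here.

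The study sequenced small RNA from Tbx18-expressing stroma cells of the peri-wolffian duct, the mesenchyme that surrounds the tube from which the ureteric bud grows. All 4 libraries came from CD1 mouse embryos at E10.5 with the genotype Tbx18-Cre;CAG-tdTomato, described as wildtype, and the cells were taken by flow sorting. The Tbx18 promoter drives Cre, and the reporter then stays on in the cells' descendants, so a sorted cell need not express Tbx18 any longer. The labels do not say how many embryos went into a library or whether libraries were separate pools, so the SDs given measure the spread between 4 libraries, which may be technical. There was 1 group and therefore no comparison between conditions and no test. The unit is TPM, in which the reads of each gene are corrected for its length and then scaled to a common total per library. In sorted bulk cells, fewer cells that express a miRNA and less of it per cell cannot be told apart.

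A miRNA gene is transcribed as a longer RNA that holds a hairpin. The nuclear enzyme Drosha, with its partner Dgcr8, cuts out the hairpin, Dicer trims it to a duplex, and a single strand of that duplex enters an Argonaute protein. Its seed, bases 2 to 8, pairs with target mRNAs. Numbers are given to miRNAs in the order in which they are reported, so that the numbers from 1000 upwards were given mostly after deep sequencing came into use. Some hairpins reach Dicer by another way: a mirtron is a whole short intron freed by splicing, and hairpins can also come from small nucleolar RNA (snoRNA), small Cajal body RNA (scaRNA) or tRNA, which are stable RNAs with other main functions.

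The sequences of abundant genes are shown first, since the genes differ in what else is annotated at their place. All are from RefSeq on GRCm38.p6 and are written 5′ to 3′. Hairpins matched for 153 of the 182 genes and mature sequences for 161. The first set holds 5 whole hairpins. Mir5099 led all others in level and lies between annotated genes at chr12:36816205-36816278, plus strand. Mir1839 (chr7:81529916-81529988, plus strand) and Mir3068 (chr12:87437679-87437757, minus strand) are also annotated as an scaRNA and a snoRNA. Mir1983 (chr13:21896918-21897049, minus strand) and Mir5100 (chr11:60728663-60728726, plus strand) hold the letters GUUCGANNC, in capitals, which are the consensus of the B box inside tRNA genes.
Mir5099 hairpin: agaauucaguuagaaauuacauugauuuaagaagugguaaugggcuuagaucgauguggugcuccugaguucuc
Mir1839 hairpin: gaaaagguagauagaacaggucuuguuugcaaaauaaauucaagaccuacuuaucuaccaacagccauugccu
Mir3068 hairpin: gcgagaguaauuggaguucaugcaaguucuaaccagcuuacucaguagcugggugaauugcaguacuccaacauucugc
Mir1983 hairpin: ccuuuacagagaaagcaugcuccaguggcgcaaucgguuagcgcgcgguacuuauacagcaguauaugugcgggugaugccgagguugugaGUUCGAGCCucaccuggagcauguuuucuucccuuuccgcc
Mir5100 hairpin: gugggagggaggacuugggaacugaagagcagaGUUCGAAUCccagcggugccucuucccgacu

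The letters GUUCGANNC were searched on both strands of every matched miRNA hairpin and stood in 4 of 525, a share of 0.762%. The other hairpins with it were the lower-numbered Mir490 and the clustered Mir434. In Mir1983 the match covers bases 92 to 100 of the hairpin, and in Mir5100 it covers bases 34 to 42. A match is a description of letters and shows no origin by itself.

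The second set holds mature sequences of abundant genes, with the seed in capitals. It opens with a pair of mirtrons, Mir1981 and Mir3102, whose 5p sequences begin at the first base of the host intron. The others are from Mir1839 and Mir3068, from the intergenic Mir1983, and from genes inside longer introns.
mmu-miR-1981-5p: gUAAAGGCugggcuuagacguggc
mmu-miR-1981-3p: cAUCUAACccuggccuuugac
mmu-miR-3102-5p: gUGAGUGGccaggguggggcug
mmu-miR-1839-5p: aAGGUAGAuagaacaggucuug
mmu-miR-3068-5p: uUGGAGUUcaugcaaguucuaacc
mmu-miR-1983: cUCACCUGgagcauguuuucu
mmu-miR-5100: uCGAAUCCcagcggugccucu
mmu-miR-3081-5p: gACUGGAGcuuggagcggugagc
mmu-miR-1198-5p: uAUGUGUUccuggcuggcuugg
mmu-miR-1964-5p: aGCUGGAGcacaaaagccggug
mmu-miR-3099-3p: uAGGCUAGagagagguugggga
mmu-miR-3095-3p: uGGACACUggagagagagcuuuu

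Depth sets what can be seen of genes this low. Recovered reads on all miRNA genes ranged from 146255 in library 4 to 1087240 in library 2. On a hairpin of 80 nt, 3 reads, the number that a count of 0 still allows, amount to 0.147 TPM in library 1 and 0.348 TPM in library 4, counting error only. Marker miRNAs of mesenchyme summed to 1894, 2373, 1444 and 331 TPM in libraries 1 to 4, with Mir199a-2 and Mir214 listed at 0. In library 4 the other sums were 251 TPM for endothelium, 224 for striated muscle, 144 for liver and 80.6 for neural genes. Epithelium was at 43.5 TPM there, white blood cells at 0.999 and red cells at 0.902. Marker sums reached 157 TPM for epithelium, 528 for endothelium, 11.9 for red cells, 6.18 for white blood cells, 342 for striated muscle and 144 for liver in the library where each was highest. The neural sum was 348, 35.7, 2890 and 80.6 TPM in libraries 1 to 4, so library 3 stood far above the others. In library 3 the neural sum was also above the mesenchymal sum. At 0 in all libraries were Mir486 (1 of 3 red cell genes), Mir223 (1 of 3 white cell genes with a row), Mir124a-1 (1 of 6 neural genes) and Mir1a-2 (1 of 6 muscle genes). The other genes of these lists with a row were above 0 in at least 1 library. Mir486 and Mir1a-2 each overlap a miRNA gene of the opposite strand, a setting taken up with the overlaps.

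Most of the 182 genes were at or near 0 in these cells. Detection was set at 1 TPM in every library, which 12 of 182 reached (6.59%), against 164 of 404 lower-numbered genes (40.6%). The share was 33.1% over all 643 miRNA genes and 7.69% over all rows. At the other end, 82 of the 182 (45.1%) were listed at 0 in every library, against 109 of 404 (27.0%), where the share over all miRNA genes was 31.6%. The remaining 88 had a read in at least 1 library without being detected. These 2 classes of genes were set by their names, so their shares are a description of the same libraries and carry no test.

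Genes at 1 TPM or more numbered 18, 21, 27 and 15 in libraries 1 to 4. Genes with any read numbered 78, 81 and 82 in libraries 1 to 3 and 51 in library 4, which had the fewest miRNA reads. A read in all 4 libraries was found for 42 genes, in 3 for 24, in 2 for 18 and in 1 for 16. Over the 4 libraries together, 38 genes had 1 to 9 reads, and 20 of these had no more than 3. Another 46 had 10 to 99 reads, and 16 had 100 or more. The median of the mean level was 0.0170 TPM over all 182 genes and 1.36 TPM over the lower-numbered genes. Among genes above 0 in some library, the median of log2(TPM + 1) was 0.27 ± 0.12 (SD, n = 4 libraries) for the 100 such genes and 2.69 ± 0.73 (SD, n = 4) for the 295 lower-numbered ones.

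**Figure D1:**
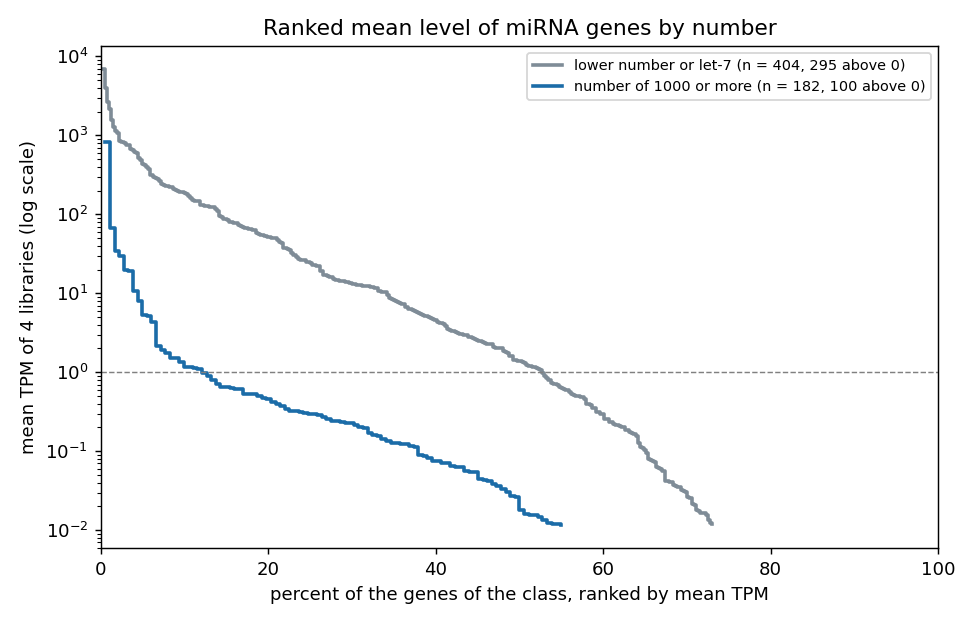
Mean TPM over 4 libraries (vertical, log scale) of each miRNA gene against its rank as a percent of its class (horizontal), for the 182 genes numbered 1000 or higher and the 404 lower-numbered genes. Lines end where genes listed at 0 begin, at 100 and 295 genes above 0, and the dashed line marks 1 TPM.

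A single gene held most of the level. Summed over the 182 genes, levels were 754, 1660, 1144 and 728 TPM in libraries 1 to 4, or 14944, 26239, 17020 and 5944 reads. This was 1.77%, 2.53%, 1.85% and 4.44% of the miRNA total of each library, with a mean of 2.65 ± 1.24% (SD, n = 4). Mir5099 alone took 73.3%, 84.2%, 79.5% and 65.6% of that sum. Without Mir5099 the sum was 201, 262, 234 and 250 TPM. As a share of the miRNA total the same remainder was 0.474%, 0.400%, 0.379% and 1.53%, highest in library 4, where all miRNA genes together made up 70.3% of the table's TPM against 86.0% to 90.7% in the others.

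Mir5099 (gene ID 100628578, a hairpin of 74 nt) was at 552, 1398, 910 and 477 TPM, a mean of 834 ± 420 TPM (SD, n = 4), from 10454, 21262, 12908 and 3808 reads. It was the highest of the 182 in every library. Its lowest library lay above the highest library of any other of the 182 genes, whose peak was 134 TPM for Mir1839. The coefficient of variation (SD divided by mean) was 0.504, among the lower values of the 7 genes with a mean of at least 10 TPM. As a share of all miRNA TPM, Mir5099 was 1.30%, 2.13%, 1.47% and 2.91%, so that library 4 was lowest in TPM and highest in share.

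**Figure D2:**
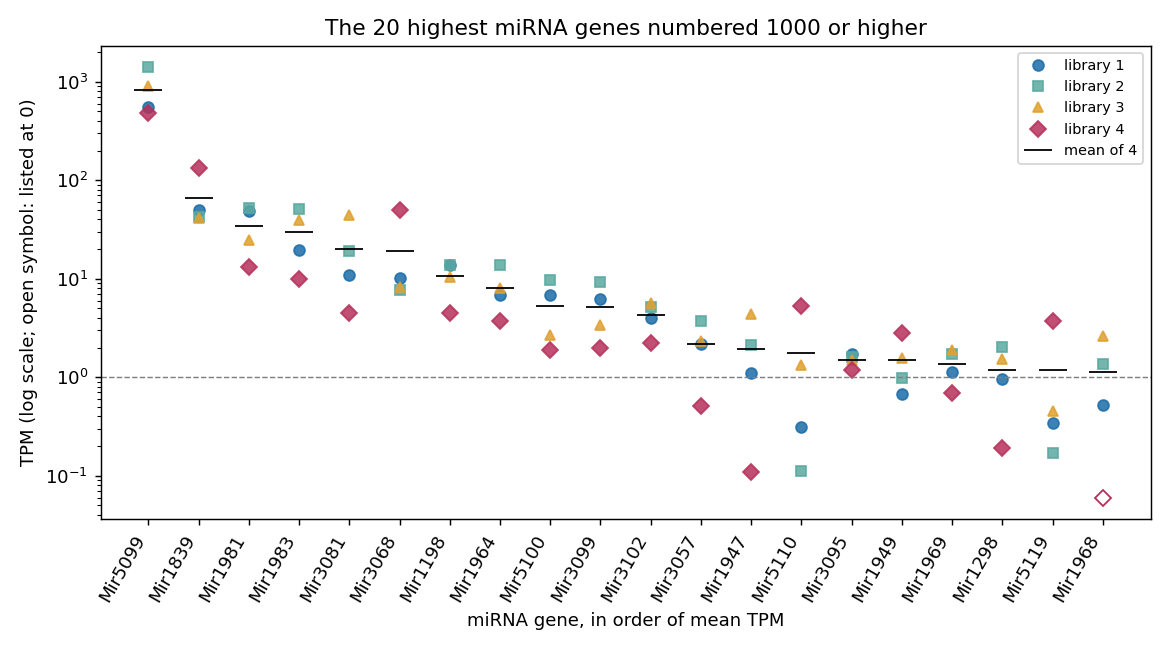
TPM (log scale) in each of the 4 libraries for the 20 highest genes numbered 1000 or higher, in order of mean TPM; the bar is the mean, the dashed line 1 TPM, and an open symbol a gene listed at 0. Mir5099 stands apart at 477 to 1398 TPM, and library 4 lies above the others for Mir1839, Mir3068, Mir5110, Mir1949 and Mir5119.

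After Mir5099, the genes over a stable small RNA and those with the B box letters are given first. Mir1839, whose hairpin overlaps an annotated scaRNA over 66 nt and an exon of the non-coding gene 2900076A07Rik, was at 49.7, 41.8, 41.2 and 134 TPM. Its mean of 66.6 ± 44.95 TPM fell to 44.2 without library 4. Mir1983 was at 19.4, 50.9, 39.6 and 10.05 TPM, a mean of 29.99 ± 18.6, with library 4 lowest. Mir3068, whose hairpin overlaps an annotated snoRNA over 76 nt, was at 10.1, 7.64, 8.25 and 49.9 TPM. The mean of 19.0 ± 20.6 TPM (SD, n = 4) therefore rested on library 4 and was 8.68 without it. The order also depends on the scale: as shares of the miRNA total, written as TPM at the mean total, Mir1839 averaged 124 and Mir3068 41.1, the latter above Mir1981 at 36.5 and Mir1983 at 28.9. Mir5100, in an intron of Mief2 (a mitochondrial fission factor), was at 6.90, 9.73, 2.69 and 1.88 TPM, a mean of 5.30 ± 3.68.

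Mirtrons were few, and none of them was listed at 0 in all libraries. The 5 genes with both hairpin ends within 10 nt of the ends of an intron were Mir1981, Mir3102, Mir1224, Mir1982 and Mir3062. Mir1981 fills an intron of 82 nt in Marc2 (a mitochondrial reductase) at chr1:184822407-184822488, minus strand, and was at 48.3, 52.5, 24.7 and 13.1 TPM. Mir3102 fills an intron of 104 nt in Arhgef17 at chr7:100882306-100882409, minus strand. It was at 4.02, 5.19, 5.72 and 2.23 TPM, a mean of 4.29 ± 1.55 (SD, n = 4), with values that varied less than those of most other detected genes. Mir1224, in Vwa5b2, averaged 0.324 ± 0.253 TPM from 10, 2, 10 and 1 reads. In all, 2 of the 5 were detected, as were both of the 2 lower-numbered genes of this kind.

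Each gene was given a single place, the first that fit in a ranked list. The ranks were whole intron, same-strand exon, same-strand intron, opposite-strand exon, opposite-strand intron and intergenic. Introns of the same strand were the commonest place, with 77 genes, of which 6 were detected and 25 at 0 in all libraries. Of 189 lower-numbered genes in such introns, 85 were detected and 42 were at 0. Mir3081, in an intron of Boc (a Hedgehog co-receptor), was at 11.0, 19.3, 44.8 and 4.53 TPM, so its mean of 19.9 ± 17.7 (SD, n = 4) fell to 11.6 without library 3. Mir1198, in Gripap1 (an endosomal protein) on the X chromosome, was at 13.7, 13.9, 10.3 and 4.52 TPM. Its coefficient of variation of 0.412 was the lowest of the 7 genes with a mean of at least 10 TPM. Mir1964, in Zfp84 (a zinc finger gene), was at 6.83, 13.7, 8.11 and 3.69 TPM. Mir3099, in Usp29 (a deubiquitinase), was at 6.28, 9.21, 3.35 and 1.99 TPM. Both had library 2 highest and library 4 lowest. Mir3095, in Lpar1 (a lysophosphatidic acid receptor), was the lowest detected gene at 1.71, 1.62, 1.499 and 1.17 TPM, and its coefficient of variation of 0.156 was the lowest of the 12 detected genes.

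Several intronic genes at about 1 TPM were decided by 1 library. Mir1947, in Lmln (a metalloprotease), was at 1.10, 2.12, 4.36 and 0.109 TPM, a mean of 1.92 that became 1.11 without library 3. Mir1968, in Grtp1, was at 0.518, 1.36, 2.61 and 0 TPM, a mean of 1.12 that became 0.626 without library 3. Mir5119, in Cdk12 (a kinase of RNA polymerase II), was at 0.343, 0.171, 0.458 and 3.74 TPM, and its mean of 1.18 became 0.324 without library 4. Mir1947 and Mir1968, like Mir3081, were highest in library 3, as were 37 of the 100 genes above 0, the most of any library. That library also had the neural marker sum of 2890 TPM. The part of that in the levels of Mir1947, Mir1968 and Mir3081 was not tested.

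Outside same-strand introns, levels were concentrated in a few genes. Of the 32 intergenic genes, 2 were detected (Mir5099 and Mir1983) and 19 were at 0. Mir1969, the third intergenic gene by level, averaged 1.35 ± 0.548 TPM (SD, n = 4). Of the 51 genes over an exon of the same strand, 2 were detected and 25 were at 0, and the detected pair were Mir1839 and Mir3068. Mir3057, over an exon of Apba3 (an adaptor protein), was the next of these at 2.15, 3.69, 2.35 and 0.510 TPM. None of the 14 genes in introns of the opposite strand was detected, and 10 were at 0. The highest of them was Mir5110, in Bcas3, at 0.315, 0.112, 1.32 and 5.33 TPM, whose mean of 1.77 became 0.582 without library 4. Mir3110 (Tmem255a) and Mir3079 (Spatc1) followed at 0.392 ± 0.331 and 0.297 ± 0.139 TPM (SD, n = 4). All 3 genes placed over an exon of the opposite strand, Mir1905 (Mex3a), Mir3968 (Trim80) and Mir5126 (Dner), were listed at 0. Genes in a same-strand intron that also lie over such an exon are not among these 3. Among lower-numbered genes, 35 of 93 intergenic ones and 34 of 83 over same-strand exons were detected. For opposite-strand introns it was 5 of 24, and for opposite-strand exons 3 of 13. At 0 were 23, 26, 8 and 10 of these, in the same order. With 6.59% of all 182 genes detected, 14 and 3 genes are too few to tell places apart.

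The order of the 20 highest genes was loose. Of the 19 neighbouring pairs in the order of mean TPM, 3 kept their order in all 4 libraries, 9 in 3 libraries and 7 in 2 or fewer. The 3 that held were Mir5099 above Mir1839, Mir1198 above Mir1964 and Mir3102 above Mir3057. In every other neighbouring pair at least 1 library had the opposite order, and genes further apart in the order were not compared in this way.

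How overlap with exons went with level depended on the exons and the rule used. In the ranked places above, transcripts that keep an intron, small RNA transcripts and the hairpin alone were left out, and mirtrons were set apart. Of 51 genes placed over a same-strand exon, 2 were detected, the abundant Mir1839 and Mir3068. Among lower-numbered genes it was 34 of 83 (41.0%), close to their overall share. Another set of exons was chosen after seeing the data and applied to every gene without regard to those places. With exons taken from GENCODE vM21 transcripts that carry a RefSeq accession, 139 of the 182 genes overlapped no such exon, 37 overlapped one on the same strand and 6 on the opposite strand. All 12 detected genes were among the 139, of which 57 (41.0%) were at 0 in all libraries. Of the 37 on the same strand none was detected, 18 had a read and 19 were at 0, and the highest was Mir3057 at 2.17 TPM. All 6 on the opposite strand were at 0. Of the lower-numbered genes, 158 of 360 were detected with no such exon, 5 of 33 with one on the same strand and 1 of 11 with one on the opposite strand. The sources used here do not say how reads that fall on more than 1 gene were counted, so a 0 over an exon may be a limit of the counting and is not shown to be absence. Among genes over no such exon the detected shares were 8.63% and 43.9%, so the gap between the classes was as large there.

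**Figure D3:**
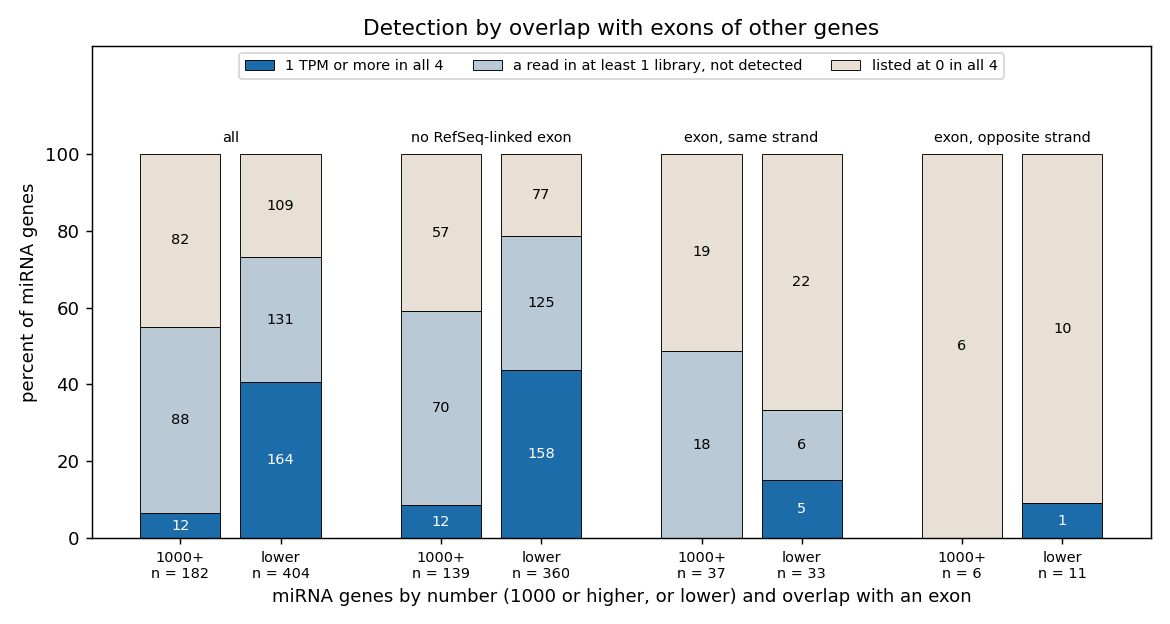
Percent of miRNA genes (vertical) that were detected, had a read without being detected, or were listed at 0 in all 4 libraries, for genes numbered 1000 or higher and lower-numbered genes, split by overlap with an exon of a RefSeq-linked transcript; numbers inside the bars count genes. All 12 detected genes numbered 1000 or higher overlap no such exon, and all 6 that lie over an exon of the opposite strand are at 0.

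Overlap between rows of the table itself touched 12 of the 182 genes, of which 8 were at 0. Among lower-numbered genes it touched 50, of which 27 were at 0. In 9 of the 12 the overlap was with another miRNA hairpin or an exon of the other row. Of these 9, 7 were at 0, against 18 of 24 lower-numbered genes by the same rule. Zeros under such overlap were therefore common in both classes. The exceptions among the 9 were Mir1839 over 2900076A07Rik, next after Mir5099 in mean TPM, and Mir1247 over Dio3os at 0.117 TPM. The 7 at 0 were Mir3065 with Mir338, Mir3074-1 with Mir24-1, Mir3074-2 with Mir24-2, Mir3107 with Mir486, Mir1897 with Sox2ot, Mir3078 with Mir124a-1hg and Mir3069 with Scarna13. The table held 7 pairs of overlapping miRNA genes, all on opposite strands. Both genes were at 0 in 6 pairs, the exception being Mir374b at 3.07 ± 0.691 TPM (SD, n = 4) over Mir374c at 0. All 4 pairs that hold one of the 182 genes were at 0 on both sides.

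The pairs that matter most are those of miR-24, a miRNA made from the same transcripts as miR-23 and miR-27. The mature sequences of each pair are printed with the bases that lie opposite each other in capitals. The stretch is 20 bases for miR-3074-5p and miR-24-3p, and 21 bases for miR-3065-5p and miR-338-3p.
mmu-miR-3074-5p: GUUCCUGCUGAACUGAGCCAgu
mmu-miR-24-3p: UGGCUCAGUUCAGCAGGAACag
mmu-miR-3065-5p: uCAACAAAAUCACUGAUGCUGG
mmu-miR-338-3p: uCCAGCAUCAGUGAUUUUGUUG

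The neighbours of these genes on the same cluster were well above 0. Mir27b was at 197, 237, 230 and 19.7 TPM and Mir23b at 108, 82.8, 123 and 9.65 TPM, while Mir24-1 and Mir3074-1 beside them were at 0 in all 4 libraries. At the other cluster Mir23a averaged 16.9 ± 7.27 TPM and Mir27a 15.9 ± 8.16 TPM (SD, n = 4), with Mir24-2 and Mir3074-2 at 0. The sources used here do not say whether the counting used strand, and its part in these values was not tested.

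Overlap with a small RNA class annotated in GENCODE was found for 6 of the 182 genes and for 1 lower-numbered gene, Mir677. Nuclear tRNA genes were not among the classes searched, so overlap of Mir1983 or Mir5100 with a tRNA gene was not tested. Of the 6, Mir3069 (inside Scarna13), Mir1897 (inside an RNA of 272 nt of the miscellaneous class) and Mir5121 (over Snord33) were at 0 in all libraries. The Scarna13 row itself was at 8.04 TPM. The other three, Mir1839, Mir3068 and Mir1949, were each highest in library 4. Mir1949 was at 0.670, 0.973, 1.56 and 2.78 TPM, from 12, 14, 21 and 21 reads. Together these 3 genes summed to 60.5, 50.5, 51.0 and 186 TPM, or 8.03%, 3.04%, 4.46% and 25.6% of the level of all 182 genes. Mir677, at 73.1, 76.2, 126 and 94.5 TPM, was not highest in library 4.

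Library 4 was the highest library for 5 of the 21 genes with a mean of at least 1 TPM, the 3 just named and Mir5110 and Mir5119. Over all miRNA genes with such a mean the share was 5.13% (14 of 273), and over the lower-numbered genes it was 7 of 212. In TPM, library 4 against the mean of libraries 1 to 3 was 3.02 for Mir1839, 5.75 for Mir3068, 2.60 for Mir1949, 9.16 for Mir5110 and 11.6 for Mir5119, where Mir5110 and Mir5119 had 50 and 23 reads in library 4. On shares of the miRNA total, which remove the lower miRNA content of library 4, the counts were 10 of 21 and 57 of 212, with 33.0% over all miRNA genes. Mean levels moved with this scale too, written as TPM at the mean miRNA total: to 2.62 for Mir1949, 4.14 for Mir5110 and 2.86 for Mir5119. The 9 scaRNA rows of the table summed to 282, 215, 205 and 403 TPM. Of the 9, 7 were highest in library 4, while Scarna2 and Scarna9 were highest in library 1. The share of all rows highest in library 4 was not computed. The part of total small RNA content or of RNA quality in the library 4 values was not tested.

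**Figure D4:**
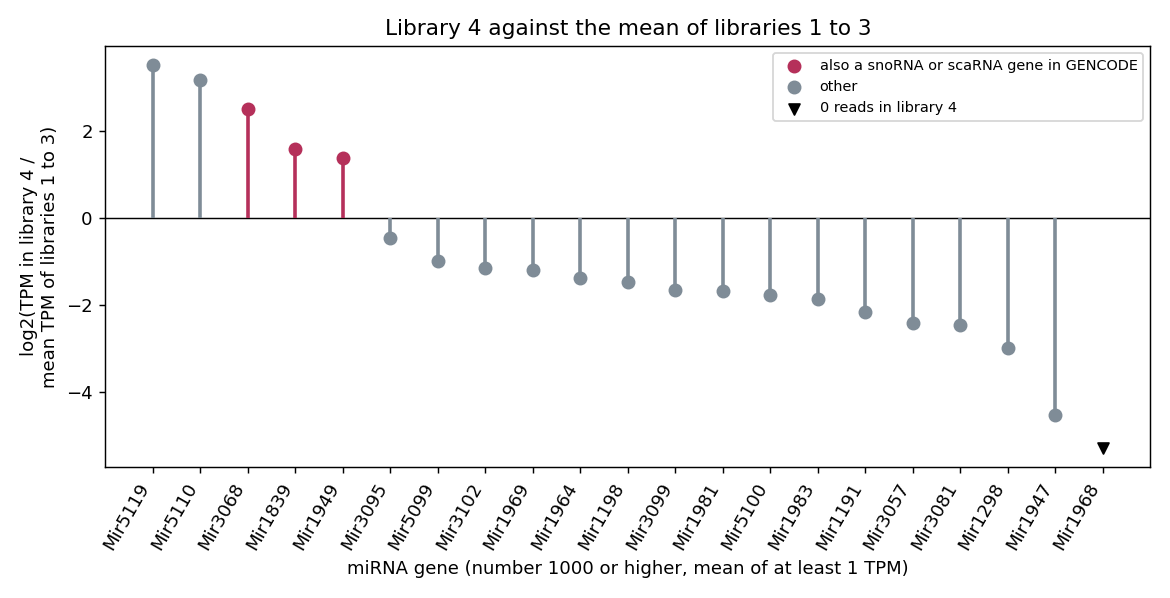
Log2 of TPM in library 4 over the mean TPM of libraries 1 to 3 (vertical) for the 21 genes numbered 1000 or higher whose mean reached 1 TPM, those annotated as snoRNA or scaRNA being marked. The 3 marked genes, Mir5110 and Mir5119 lie above 0, and the triangle marks Mir1968, which had 0 reads in library 4.

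Of the 12 detected genes, 10 were lowest in library 4 in TPM and 2 (Mir1839 and Mir3068) were highest there. Library 4 also had the lowest sum over all miRNA genes, 16399 TPM against 42494 to 65478 TPM in the others. The share of all miRNA genes lowest in library 4 was not computed, so the 10 are not set apart by it. Over the 100 genes above 0, libraries 1 to 4 were the highest for 14, 34, 37 and 15 genes, and the share highest in library 4 was 9.09% over all miRNA genes above 0. Coefficients of variation among the 12 detected genes ran from 0.156 for Mir3095 to 1.09 for Mir3068. Among the 7 genes with a mean of at least 10 TPM, Mir3068, Mir3081 and Mir1839 varied most and Mir1198, Mir5099 and Mir1981 least.

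Seeds of these genes were compared with those of lower-numbered miRNAs. How often other miRNAs share a seed was not computed, so the counts describe these genes and do not set them apart. The 227 mature sequences of 161 genes held 223 seeds, of which 10 also occur in a lower-numbered miRNA, for 11 genes. Of the 12 detected genes, 11 had a mature sequence, and 2 of those shared such a seed. No mature sequence was matched for Mir5099, so the highest gene was left out of this comparison. The miR-1983 seed UCACCUG is that of miR-412-3p, and the miR-3102-5p seed UGAGUGG is that of miR-702-5p. Members of well known seed families were at 0: miR-1961, with the let-7 seed GAGGUAG, and miR-1928, with the miR-221/miR-222 seed GCUACAU. Lower-numbered genes with the let-7 seed summed to a mean of 1262 TPM. The table counts hairpin genes and not arms, so the level of any one mature sequence was not measured.

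Most of the 182 genes stood alone in the genome. Another miRNA gene of the table lay within 10 kb of 12 of the 182 genes (6.59%), against 207 of 404 lower-numbered genes (51.2%). None of those 12 was detected, and the highest of them averaged 0.244 TPM. Median hairpin length was 83 nt against 84 nt. Folding free energy, predicted with RNAfold, had a median of −0.429 kcal/mol per nt for 153 hairpins against −0.427 for 318. Median GC content was 52.9% against 47.8%, and the median share of paired bases 70.5% against 72.8%. By number, the 73 genes from 1187 to 1983 and the 73 from 3057 to 3971 had 5 detected genes each. The 33 genes from 5046 to 5136 had 2, and the 3 genes from 2136 to 2861 had none.

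Names at the boundary of 1000 were low on both sides. The 3 genes just below it, Mir882, Mir883a and Mir883b, were at 0. Just above it, Mir1187 and Mir1190 were at 0, and Mir1191, over an exon of BC024978, averaged 1.11 ± 0.878 TPM (SD, n = 4). In the Dlk1-Dio3 cluster, 2 of the 8 genes left out were detected, Mir1193 at 6.61 ± 2.43 TPM and Mir1188 at 1.26 ± 0.231 TPM (SD, n = 4).

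Levels are also given for a list of 11 numbers that human miRNA names use too. The list is not complete and leaves out Mir5100, so it describes its own rows alone. It had 12 rows, none of them detected, with 7 above 0 and 5 at 0. Mir1298, in an intron of Htr2c (a serotonin receptor), was the highest of the list at 0.958, 2.04, 1.54 and 0.189 TPM. Its neighbours in Htr2c were lower: Mir1264 had 1, 5, 0 and 0 reads, a mean of 0.0821 TPM that became 0.0152 without library 2, and Mir1912 was at 0. Mir3064, over an exon of the RNA helicase gene Ddx5, averaged 0.993 ± 0.623 TPM, and Mir1249 averaged 0.711 ± 0.361 TPM (SD, n = 4). Mir1251, in the neural non-coding gene Rmst, had 3, 2, 23 and 0 reads, and its mean of 0.421 TPM became 0.0852 without library 3. Mir1247, over an exon of Dio3os, had 6, 2, 1 and 0 reads, and its mean of 0.117 TPM became 0.0608 without library 1. Mir1306, over an exon of Dgcr8, the gene for the partner of Drosha, was at 0, as were Mir3065 and both Mir3074 genes.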

How the data were processed

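The authors deposited TPM values, with 1 row per gene ID and 1 column per library. Single reads of 75 bp were sequenced, per the labels. The submitters' processing notes name mm10 (GRCm38) and limma. Not given in the sources used here were the aligner, counter, annotation and strand setting. Of 2976 rows, 2541 matched RefSeq GRCm38.p6 and 435 did not. TPM in the table summed to 2.33% to 7.22% of the sum that TPM has by definition, so other genes entered the scaling. Reads per miRNA gene were recovered from TPM and gene length, and 100% of values came out whole (tolerance 0.01). On 20 simulated libraries of 643 miRNA genes, built with the same gene lengths, the same step recovered 100% of values. The simulation checks the arithmetic alone and cannot show that the smallest value in a library is 1 read. Division by hairpin length raises short hairpins.

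The members and lists were chosen with earlier results of these data known. Named genes are the 20 highest, the 3 highest of each position class, the 3 highest and 3 lowest coefficients of variation at a mean of at least 10 TPM, a list of 11 numbers shared with human names, and the 3 miRNA genes nearest 1000 on each side. Positions came from GENCODE vM21. No 2 libraries shared a value above 0. Alternatives changed thresholds, scale, pseudocount, overlap rule and libraries. Tools were Python 3.11.15, pandas 2.3.3, numpy 2.4.6, matplotlib 3.10.9 and RNAfold 2.7.2.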

Additional observations from a re-analysis of the deposited data

Results flagged for a closer look

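In each set of 4 libraries, the gap between the highest or lowest library and its nearest neighbour was divided by the range and set against the 95% critical value of Dixon's test for 4 values. Of 35 sets, 7 passed it. The sets share libraries and genes, some genes were named for their high variation, and others had few reads. The count of 7 therefore cannot be set against a rate expected by chance. Library 4 stood apart high for Mir1839 (134 TPM), Mir3068 (49.9 TPM) and Mir5119 (3.74 TPM, from 23 reads). It also stood apart high for the level of the 182 genes without Mir5099, at 1.53% of the miRNA total. It stood apart low for the number of genes above 0, at 51. Library 3 stood apart for Mir1251 (1.43 TPM, from 23 reads) and library 2 for Mir1264 (0.283 TPM, from 5 reads).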

How the results depend on the processing

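The number of detected genes, 12 as reported, was 4 at a limit of 10 TPM, 21 with a mean of at least 1 TPM in place of all libraries, and 7 among numbers of 2000 or more. It was 13 to 17 under 4 other settings (0.5 TPM, 10 recovered reads, equal miRNA totals, the chromosome 12 cluster kept in), and 12 to 16 with 1 library left out. The share detected was lower than that of lower-numbered genes by 34.0 percentage points, a difference of -34.0. This difference was -36.7 at 0.5 TPM, -19.6 at 10 TPM, -36.2 for rows that overlap no other row and -43.6 for genes above 0. With 2 settings chosen after seeing the data it was -36.6 with the cluster kept in and -35.3 over no RefSeq-linked exon, and with 1 library left out it ran from -36.3 to -34.2. The summed level, 2.65% of the miRNA total, was 0.695% without Mir5099 and 2.05% to 2.94% with 1 library left out. The median log2 level of genes above 0, 0.27, was -1.76 with a pseudocount of 0.1 TPM, 3.35 with 10 TPM and 0 over all 182 genes. That of lower-numbered genes, 2.69, was 3.98 with 10 TPM and 0.95 over all 404. The count at 0 among genes that overlap another row, 8, was 4 on the same strand only and 7 with overlap of an exon or another miRNA gene, a rule chosen after seeing the data. Genes highest in library 4, 5 of 21, numbered 10 on shares of the miRNA total, a scale chosen after seeing the data. Of 39 named genes, 8 had a mean that moved by more than 1 SD under at least 1 of 6 settings. Leaving out 1 of 4 libraries cannot move a mean by 1 SD whatever the values, so those settings could not count here. By ratio, the largest change from leaving out 1 library was 5.42 times, for Mir1264 without library 2. That of Mir3068 without library 4 was 2.19 times. No paired analysis was possible because there is 1 group. Depth limits the 38 genes with 1 to 9 reads in all, whose presence or order was not resolved.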
